A study of Mus musculus with 8 samples.

Results

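Sca1-positive cells carrying a non-target short hairpin RNA (shRNA) construct were compared with untreated Sca1-positive cells. The comparison uses 4 of the 8 libraries of the study, 2 labelled as carrying the non-target construct (NTC 1 and NTC 2) and 2 labelled as untreated (untreated 1 and untreated 2). The libraries were taken by their labels, and no measured value entered the choice. All cells were of the C57BL/6 mouse strain and were grown at 5.5 mM glucose. The untreated cells were embryonic stem cells kept for 4 days on gelatin without the cytokine LIF, sorted with magnetic beads against Sca1 to a stated purity above 80%, and then grown for 2 to 8 population doublings without LIF. The NTC cells were Sca1-positive cells of the same kind that had received a MISSION lentivirus with the non-target shRNA and then at least a week of puromycin at 1 µg/ml. The labels give the untreated cells neither virus nor puromycin, so effects of the virus, the hairpin, the selection and the extra time in culture cannot be told apart. A single non-target vector was used, and whether replicates came from separate cultures is not said, so the spread behind each p-value may be technical. The remaining libraries, 2 of undifferentiated embryonic stem cells and 2 of Sca1 cells in which Set7 was the target of the shRNA (knock-down, with the same lentivirus system and selection), entered the estimate of the spread and serve as reference levels. Poly(A) RNA was sequenced.

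A non-target hairpin is processed like any other shRNA but has no intended match among mouse transcripts, so it serves as the control for delivery, for selection and for loading of the RNA interference machinery. Lentiviral RNA and the DNA copied from it can be seen by cytosolic sensors that switch on interferon-stimulated genes. Puromycin, which releases unfinished peptides from the ribosome, kills cells that lack the resistance gene. Fibrillar collagens, fibronectin and elastic fibre proteins form the interstitial matrix, laminins, type IV collagen, nidogens and heparan sulfate proteoglycans form the basement membrane, and integrins bind both. All are folded and modified in the endoplasmic reticulum (ER) with the help of chaperones such as BiP (Hspa5) and the protein disulfide isomerases.

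The untreated libraries held 3097411 and 2507938 counts over all genes, with 4079756 and 4301485 for the NTC libraries, so the untreated group was the shallower one. The replicates differed unequally. Of the genes in each pair, 784 differed by over 2-fold between the untreated libraries and 137 between the NTC libraries, whose counts still differed by more than sampling noise in a chi-square test and were counted as 2 samples. The untreated 2 library and embryonic stem cell library 2 share the library code 56 in their labels, and 1 row, NR_046233, held 12.0% and 11.5% of their counts against 0.403% to 1.62% elsewhere. NTC 2 and untreated 1 share code 34 and NTC 1 has code 12, so the codes cross the groups in 1 pair. What the code stands for is not given in the sources used here. Summed markers of blood cells were at most 1.78 CPM (counts scaled to 1e6 of the library size after trimmed-mean, TMM, adjustment) with Ptprc at 0, and Myod1, Myog and Dcx, defining genes of striated muscle and neurons, were at 0 in the NTC libraries. Other markers of these types were present. The neural sum was 47.5 and 45.0 CPM in NTC and 42.6 and 41.5 CPM in untreated cells. The striated muscle sum was 10.2 and 9.81 CPM in NTC and 5.56 and 10.6 CPM in untreated cells. Ly6a itself, the gene of Sca1, was low in all 4 libraries (13.0 and 4.42 CPM untreated, 5.44 and 6.46 CPM NTC), although the cells were sorted on its product.

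The test covered 13966 genes, of which NTC cells had more of 542 (3.88%, called higher) and less of 155 (1.11%, called lower) than untreated cells at an adjusted p below 0.05 (edgeR quasi-likelihood test on all 8 libraries, Benjamini-Hochberg adjustment). Fold changes over 2 were found for 105 of the higher and 21 of the lower genes, and the median log2 change over all genes was 0.01. In every one of the 697 called genes the NTC libraries lay on the same side of both untreated libraries. Over all genes tested, both NTC libraries lay above both untreated ones in 29.4% and below both in 24%. The pair that shares code 34 is part of that comparison of libraries, so its same direction in the 697 genes is no separate check. With library totals in place of the TMM scaling, 493 genes were higher and 18 lower, and the share of higher genes among the calls went from 77.8% to 96.5%, with the median of all genes at 0.10. The counts also depended on single libraries. Without NTC 1, 54 genes were higher and 3 lower, without NTC 2, 95 and 2, without untreated 1, 337 and 177, and without untreated 2, 297 and 73. Without knock-down 1 they were 272 and 38, without knock-down 2, 265 and 38, without embryonic stem cell library 1, 978 and 523, and without library 2, 988 and 529.

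**Figure D1:**
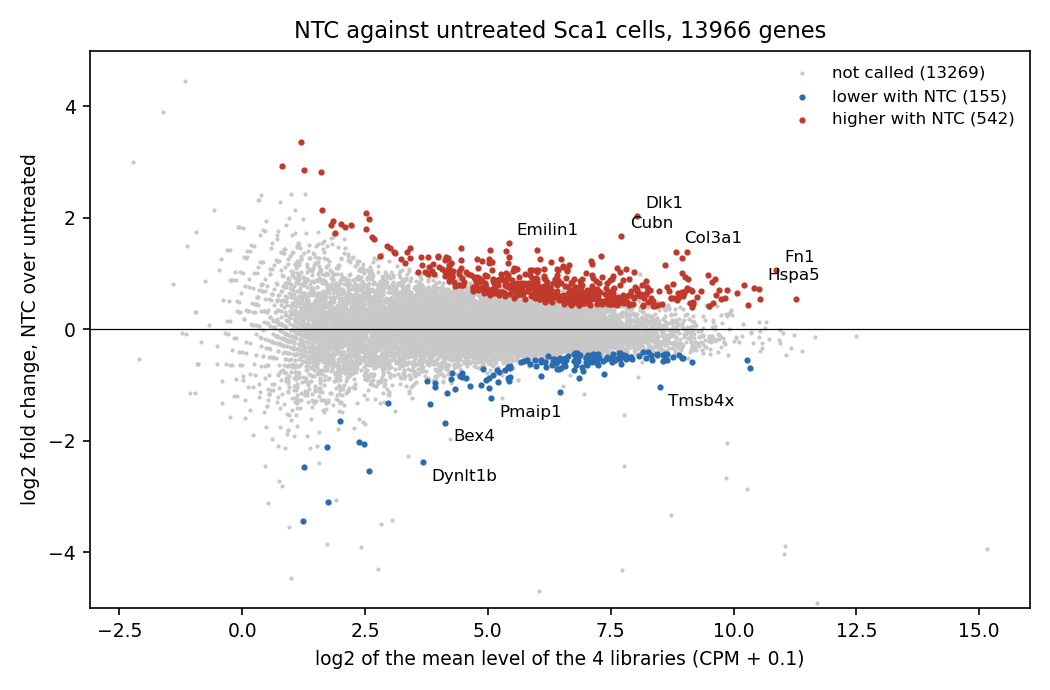
Log2 fold change of NTC over untreated Sca1 cells (vertical axis) against the log2 mean level of the 4 libraries (horizontal axis, CPM plus 0.1) for the 13966 genes tested, with 542 genes higher in red, 155 lower in blue and the rest in grey. 3 genes lie outside the plotted range of 5 on the log2 scale, and Dlk1 and Cubn stand out among the abundant genes that rose.

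Among genes that reached 20 CPM in the higher group, the largest rise was that of Dlk1, an imprinted gene for a Notch-related surface protein of progenitor and mesenchymal cells. It stood at 117 and 89.2 CPM in the untreated libraries and at 429 and 420 CPM in the NTC libraries, a log2 change of 2.03 ± 0.14 (SE; adjusted p = 6.13e-07). Every NTC value was more than 3 times any untreated value. Cubn, the receptor for vitamin B12 bound to intrinsic factor in visceral endoderm and kidney, went from 104 and 96.8 CPM to 312 and 328 CPM, a log2 change of 1.67 ± 0.14 (adjusted p = 3.49e-06). The reference levels of these genes in knock-down cells, which also carried a lentivirus and had been selected, went opposite ways. Dlk1 was at 8.06 and 7.69 CPM there, below the untreated cells, and Cubn at 347 and 412 CPM, above them. Embryonic stem cells had 439 and 558 CPM of Cubn, more than any Sca1 library, and 5.95 and 3.52 CPM of Dlk1.

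Of the 12 largest rises among such genes, 3 were of collagens. Col3a1, the chain of type III collagen, rose from 239 and 263 CPM to 656 and 659 CPM (log2 change 1.39 ± 0.11, adjusted p = 2.84e-06). Col1a1, a chain of type I collagen, rose from 256 and 331 CPM to 788 and 739 CPM (1.38 ± 0.16, adjusted p = 9.69e-05). Col5a1, whose product starts collagen fibrils, rose from 90.9 and 91.5 CPM to 238 and 214 CPM (1.31 ± 0.15, adjusted p = 0.000103). For these 3 genes the NTC libraries lay close together and far above both untreated libraries. Emilin1, an elastic fibre glycoprotein, rose from 23.5 and 19.9 CPM to 68.3 and 59.3 CPM (1.54 ± 0.18, adjusted p = 0.000129). Aebp1, a collagen-binding secreted protein, rose from 35.2 and 33.6 CPM to 99.7 and 85.6 CPM (1.43 ± 0.17, adjusted p = 0.000133). Dchs1, a giant cadherin of the planar polarity system, rose from 21.9 and 23.4 CPM to 63.6 and 56.8 CPM (1.41 ± 0.20, adjusted p = 0.000756). All of these kept an adjusted p below 0.05 without any single library of the 8. Adamts1, a protease that cuts proteoglycans, rose from 10.2 and 13.3 CPM to 31.9 and 31.7 CPM (log2 change 1.46 ± 0.24, adjusted p = 0.00197), and Hoxd4, a homeobox gene, from 20.1 and 15.0 CPM to 52.7 and 43.0 CPM (1.42 ± 0.20, adjusted p = 0.000832). Ihh, the hedgehog ligand of visceral endoderm and growing cartilage, rose from 8.04 and 10.2 CPM to 23.2 and 21.4 CPM (1.31 ± 0.24, adjusted p = 0.00453), and Scube1, a secreted EGF-repeat protein, from 10.5 and 9.72 CPM to 26.0 and 24.3 CPM (1.30 ± 0.26, adjusted p = 0.00706). These last 4 calls were lost without NTC 1 (adjusted p = 0.0546 for Adamts1, 0.0508 for Hoxd4, 0.0846 for Ihh and 0.136 for Scube1), Ihh also without untreated 1 (0.0522) and Scube1 also without NTC 2 (0.0839).

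**Figure D2:**
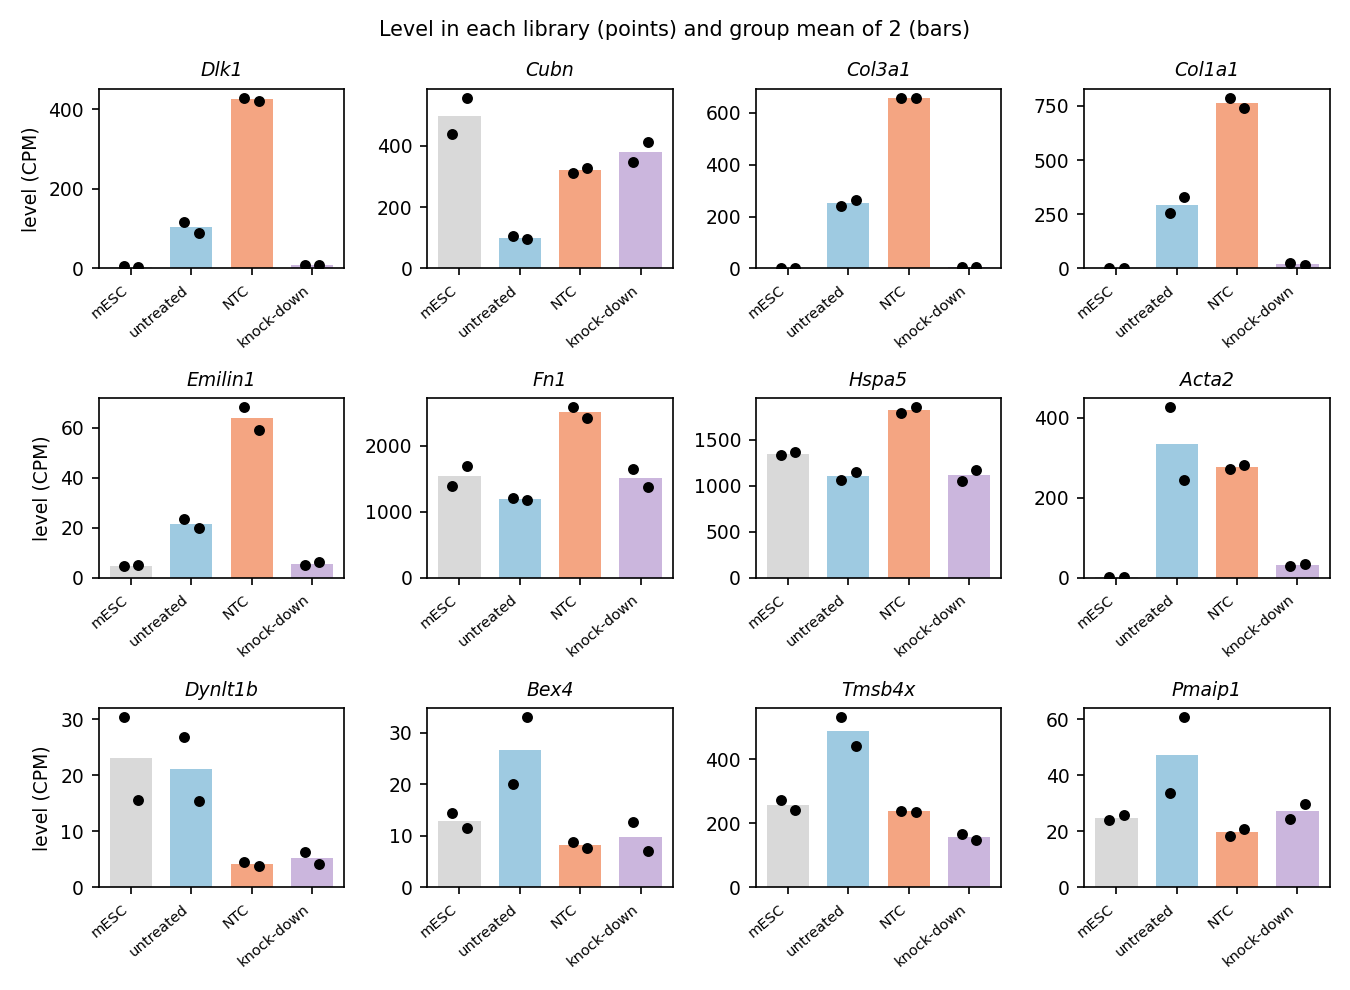
Level in each library (points, CPM) and group mean of 2 libraries (bars) of 12 genes in embryonic stem cells (mESC), untreated, NTC and knock-down Sca1 cells. Dlk1, Col3a1, Col1a1, Emilin1 and Fn1 are highest in the NTC libraries. Cubn is highest in embryonic stem cells and lowest in untreated cells. Dynlt1b, Bex4, Tmsb4x and Pmaip1 are lower in NTC and knock-down than in untreated cells, and Acta2 overlaps between untreated and NTC cells.

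The falls were fewer, with a median log2 change of -0.58 over the genes called lower against 0.71 over those called higher. Tmsb4x, which encodes the actin-sequestering peptide thymosin beta 4, went from 534 and 442 CPM to 238 and 236 CPM (log2 change -1.04 ± 0.12, adjusted p = 0.000133). Its call held without any single library. In knock-down cells it was at 166 and 148 CPM, so the untreated libraries were the highest of the 3 Sca1 groups. Among genes that reached 20 CPM in the higher group the largest fold was that of Dynlt1b, a dynein light chain, from 26.9 and 15.5 CPM to 4.49 and 3.79 CPM (-2.38 ± 0.38, adjusted p = 0.00203; 0.0517 without NTC 2). This value is uncertain because Dynlt1b has near-identical copies that can share its reads. Fgf5, the growth factor of the primed epiblast, fell further but from few reads, from 4.33 and 15.9 CPM to 2.13 and 1.11 CPM (-2.55 ± 0.61, adjusted p = 0.0243), with most of its reads in untreated 2. Its call was lost without untreated 2 (0.295), NTC 1 (0.149), NTC 2 (0.248), knock-down 1 (0.0583) or knock-down 2 (0.0598). Bex4, of a family of small X-linked adaptor proteins, fell from 20.1 and 33.1 CPM to 8.74 and 7.58 CPM (-1.67 ± 0.30, adjusted p = 0.00401). Its call was lost without untreated 2 (0.0513), NTC 1 (0.0601) or NTC 2 (0.0833).

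Pmaip1, which encodes the death-promoting protein Noxa and is a target of p53, fell from 33.7 and 61.0 CPM to 18.4 and 21.0 CPM (log2 change -1.23 ± 0.24, adjusted p = 0.00619). Eomes, a T-box gene of the primitive streak, fell from 17.6 and 31.8 CPM to 9.69 and 12.0 CPM (-1.14 ± 0.28, adjusted p = 0.0266). In both genes untreated 2 was well above untreated 1. Further genes among the 12 largest falls were Dtx4 and Dtx1, ubiquitin ligases that act on Notch (-1.35 ± 0.32 and -1.04 ± 0.29), the protocadherin Pcdh9 (-1.02 ± 0.22), the carbonyl reductase Cbr3 (-1.01 ± 0.22) and the microRNA hairpin Mir675 (-0.95 ± 0.26). Their adjusted p-values were 0.0192, 0.0458, 0.0118, 0.0144 and 0.0486 in that order. Mir675 lies within the longer host transcript H19, and reads of the 2 cannot be told apart. Each of these 7 calls was lost without at least 1 library. Without untreated 2 the adjusted p was 0.0814 for Pmaip1, 0.255 for Eomes, 0.206 for Dtx4, 0.299 for Dtx1 and 0.0578 for Cbr3, and without untreated 1 it was 0.125 for Pcdh9, 0.0720 for Cbr3 and 0.580 for Mir675. Without NTC 1 and without NTC 2 it was 0.119 and 0.0659 for Pmaip1, 0.281 and 0.131 for Eomes, 0.188 and 0.185 for Dtx4, 0.171 and 0.369 for Dtx1, 0.178 and 0.113 for Pcdh9, 0.257 and 0.0612 for Cbr3, and 0.416 and 0.138 for Mir675. Without knock-down 1 and knock-down 2, Eomes (0.0524 and 0.0531), Dtx4 (0.0524 and 0.0531), Dtx1 (0.0969 and 0.0984) and Mir675 (0.102 and 0.103) were also lost.

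Many genes of the interstitial matrix rose. Of 32 tested members of the list of fibrillar and other matrix genes, 18 were higher and none lower, against 3.88% higher over all genes, and the median log2 change was 0.83. Besides the collagens and Emilin1, fibrillin 1 (Fbn1), the backbone of elastic microfibrils, rose from 50.4 and 55.7 CPM to 133 and 121 CPM (1.27 ± 0.14, adjusted p = 9.34e-05), and fibrillin 2 (Fbn2) from 77.6 and 87.0 CPM to 207 and 176 CPM (1.22 ± 0.14, adjusted p = 9.34e-05). Fibronectin (Fn1), the most abundant of the called members and chosen here after its values were seen, rose from 1214 and 1185 CPM to 2588 and 2423 CPM (1.06 ± 0.14, adjusted p = 0.000338). Tnc, the tenascin of embryonic and wounded tissue, also chosen after its values were seen, rose from 146 and 108 CPM to 248 and 248 CPM (0.95 ± 0.14, adjusted p = 0.00115). In these 4 genes no untreated value came near an NTC value. The members not called included the proteoglycan decorin (Dcn, -0.22), Sparc (0.28), elastin (Eln, 0.37) and the crosslinking enzyme Lox (-1.33 ± 0.42, adjusted p = 0.0815). Without 1 compared library the count higher was 16 (untreated 1), 14 (untreated 2), 10 (NTC 1) and 11 (NTC 2). Transcripts of the list were longer than average (median 5044.5 bases against 2911 over all genes tested) with a median GC content of 52.7% against 50.6%, and counts with offsets for both are given with the GC and length classes.

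The levels in knock-down cells serve as a reference. The comparison of knock-down with untreated cells shares the untreated libraries with that of NTC, and 17.2% of all genes were called in it in either direction. Col3a1 was at 6.30 and 7.03 CPM, Col1a1 at 23.1 and 13.6 CPM, Fbn2 at 11.6 and 9.01 CPM and Tnc at 5.95 and 4.18 CPM in the knock-down libraries. The median log2 change of the matrix list was -2.19 for knock-down against untreated and 0.83 for NTC against untreated. For the 4 genes just named the untreated cells lay between the 2 transduced groups. Fn1 differed in this respect, with 1647 and 1384 CPM in knock-down cells, a log2 change from untreated of 0.34 ± 0.14 that did not pass the test (adjusted p = 0.105).

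The basement membrane list moved with less spread than the interstitial one. Of 18 tested members, 14 were higher and none lower, all 18 had both NTC libraries above both untreated libraries (29.4% of all genes did), and the median log2 change was 0.76 with a range from 0.28 to 1.21. Agrin (Agrn), a heparan sulfate proteoglycan, rose from 347 and 304 CPM to 680 and 640 CPM (1.02 ± 0.12, adjusted p = 9.34e-05). Nidogen 1 (Nid1), which links laminin to type IV collagen, rose from 156 and 114 CPM to 283 and 269 CPM (1.02 ± 0.14, adjusted p = 0.000432). The laminin chain Lamb2 rose from 43.3 and 53.5 CPM to 93.4 and 93.6 CPM (0.96 ± 0.15, adjusted p = 0.00115), and these 3 calls held without any single library. The laminin chains Lama5, from 283 and 349 CPM to 586 and 516 CPM (0.80 ± 0.13, adjusted p = 0.00175; 0.0783 without NTC 1), and Lama1, from 592 and 686 CPM to 1063 and 1011 CPM (0.70 ± 0.13, adjusted p = 0.00405; 0.117 without NTC 1 and 0.0699 without NTC 2), encode the long arms of embryonic laminins. Perlecan (Hspg2), chosen like the next genes after its values were seen, rose from 401 and 567 CPM to 1026 and 863 CPM (0.97 ± 0.16, adjusted p = 0.00197; 0.0766 without NTC 1). The main chains of type IV collagen, Col4a1 and Col4a2, rose by 0.79 ± 0.14 (adjusted p = 0.00358; 0.0949 without NTC 1 and 0.0589 without NTC 2) and 0.85 ± 0.15 (adjusted p = 0.00373; 0.0961 without NTC 1). Other members called were Col4a6, Nid2, Col18a1, Lamc1 and Lamb1, and the 4 that did not pass the test were Col4a5 (0.73), Lamb3 (0.65), Lama4 (0.53) and Sparc (0.28). The count higher was 3 without NTC 1, 6 without NTC 2, 11 without untreated 1 and 14 without untreated 2.

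Against the same untreated libraries, knock-down cells had basement membrane genes both higher and lower, with a list median of -0.03. Of the 18 members 3 were called higher there and 4 lower, among them Lama5 (0.58 ± 0.13, adjusted p = 0.00479) and Nid1 (-0.47 ± 0.14, adjusted p = 0.0316). Agrn was at 377 and 368 CPM, Lama1 at 641 and 611 CPM and Lamb2 at 57.1 and 50.8 CPM there, and the log2 change from untreated did not pass the test for any of these 3 (0.19, -0.03 and 0.16). The difference between the interstitial and basement membrane lists in knock-down cells was not tested.

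Enzymes that cut the matrix and receptors that bind it were next. Of 20 tested proteases and inhibitors 9 were higher (45.0%, against 3.88% of all genes) and none lower, with a median of 0.66. Mmp15, a membrane-bound metalloprotease, rose from 24.7 and 27.0 CPM to 58.9 and 58.2 CPM (1.18 ± 0.17, adjusted p = 0.000998), a call that held without any single library. Mmp11, a secreted metalloprotease, rose by 1.03 ± 0.21 (adjusted p = 0.00966; 0.0604 without untreated 2, 0.115 without NTC 1 and 0.0913 without NTC 2), and Plaur, the urokinase receptor, by 0.97 ± 0.19 (adjusted p = 0.00717; 0.0616, 0.0835 and 0.102 without the same 3 libraries). Of 15 integrin chains 7 were higher (46.7%) and none lower, also with a median of 0.66. The common beta chain Itgb1 rose from 367 and 448 CPM to 678 and 674 CPM (0.73 ± 0.13, adjusted p = 0.00286), and its partner in the fibronectin receptor, Itga5, from 124 and 102 CPM to 185 and 188 CPM (0.72 ± 0.13, adjusted p = 0.00460). Itgav, a chain of receptors for vitronectin and latent TGF-beta, rose from 58.4 and 57.9 CPM to 102 and 104 CPM (0.82 ± 0.15, adjusted p = 0.00420). The laminin-binding chain Itga7 was at 2.78 and 1.33 CPM untreated and 6.85 and 11.6 CPM in NTC cells (2.08 ± 0.46, adjusted p = 0.0159), a call on few reads that was lost without untreated 2 (0.0968), NTC 1 (0.0546) or NTC 2 (0.246). No integrin was called without NTC 1 or without NTC 2, where Itgb1 had adjusted p-values of 0.0710 and 0.0571, Itga5 of 0.0766 and 0.0758 and Itgav of 0.0788 and 0.0767, and the integrin count was 4 without untreated 1 and 3 without untreated 2. The protease count was 7 without untreated 1, 3 without untreated 2, 1 without NTC 1 and 2 without NTC 2.

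**Figure D3:**
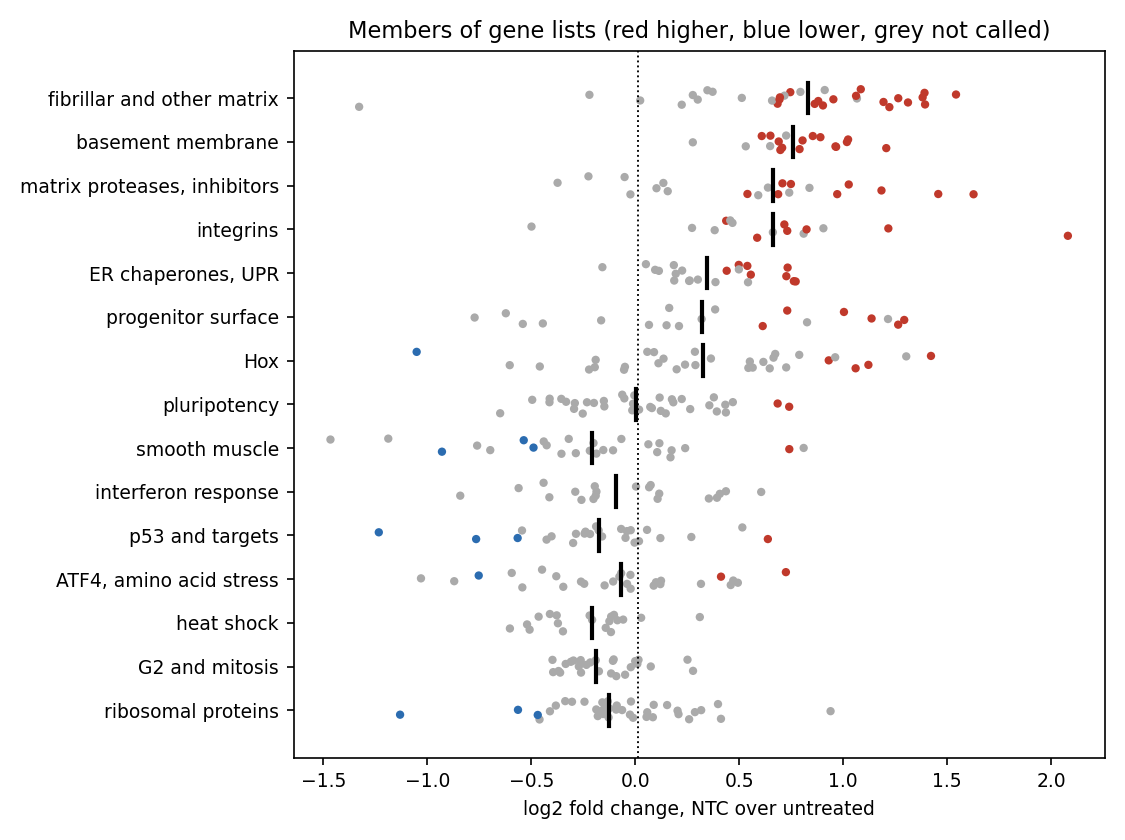
Log2 fold change of NTC over untreated cells for the tested members of 15 gene lists (points; red higher, blue lower, grey not called), with the list median as a black bar and the median of all genes tested, 0.01, as a dotted line. The interstitial matrix, basement membrane, protease and integrin lists sit to the right with medians from 0.66 to 0.83, the ER chaperone list has a median of 0.34, and the heat shock and mitosis lists sit slightly to the left.

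Chaperones of the ER rose by smaller amounts. Of the 22 genes in the list of ER chaperones and unfolded protein response genes, all tested, 8 were higher (36.4%, against 3.88% of all genes) and none lower. Both NTC libraries were above both untreated ones in 17 (29.4% of all genes did this), and the median log2 change was 0.34. The promoters of this gene family are known for the ER stress response element, in which a CCAAT box and a CCACG box are held 9 bases apart so that the factors NF-Y and ATF6 sit side by side. The motif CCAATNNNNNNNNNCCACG was searched on both strands in promoter windows from 250 bases before to 50 bases after each start (RefSeq, GRCm38.p6). It was found in 9 of the 19 list members with a window (47.4%) and in 37 of 27025 genes with a window (0.137%). By call, it was in 5 of the 7 list members that rose and had a window and in 4 of the 12 that were not called. Of all genes tested, 21 of 10808 with a window had it (0.194%). It was in 6 of 393 genes that rose, of which 5 are the list members just counted, and in none of 116 that fell. None of 21 interstitial matrix and 15 basement membrane genes with a window had it. A match describes the letters of the window and says nothing of binding in these cells.

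The 250 bases before the start are shown for 3 list members that rose, with the CCAAT and CCACG boxes of each match, or their reverse complements where the match is on the other strand, in capitals. Hspa5 is the best known target of the response, Hsp90b1 is the member with matches on both strands, and Syvn1 is the member with the largest rise.
Hspa5, chr2:34771840-34772089, plus strand: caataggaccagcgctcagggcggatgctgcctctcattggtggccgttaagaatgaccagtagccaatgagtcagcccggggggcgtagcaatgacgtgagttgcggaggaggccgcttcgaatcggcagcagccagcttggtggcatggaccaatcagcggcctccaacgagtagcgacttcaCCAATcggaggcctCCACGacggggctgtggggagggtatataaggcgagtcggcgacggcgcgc
Hsp90b1, chr10:86705445-86705694, minus strand: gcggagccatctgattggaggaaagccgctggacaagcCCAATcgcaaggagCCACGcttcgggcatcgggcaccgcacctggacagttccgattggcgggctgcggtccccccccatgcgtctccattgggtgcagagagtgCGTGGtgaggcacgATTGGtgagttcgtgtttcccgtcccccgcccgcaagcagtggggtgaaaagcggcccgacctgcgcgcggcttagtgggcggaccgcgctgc
Syvn1, chr19:6046326-6046575, plus strand: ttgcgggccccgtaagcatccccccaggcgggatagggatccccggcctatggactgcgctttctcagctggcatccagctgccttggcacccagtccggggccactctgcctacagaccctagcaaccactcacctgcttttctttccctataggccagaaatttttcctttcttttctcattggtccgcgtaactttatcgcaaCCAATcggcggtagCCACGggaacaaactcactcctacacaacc
The 19 bases of the matches, read on the strand of the motif, are shown for the other 2 members that rose (Pdia6 and Calr) and for the 4 that were not called (Canx, Dnajc3, Creld2 and Derl3), because the same boxes stand in both sets and the bases between them differ.
Pdia6: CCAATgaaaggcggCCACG
Calr: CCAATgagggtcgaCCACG
Canx: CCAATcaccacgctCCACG
Dnajc3: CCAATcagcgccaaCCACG
Creld2: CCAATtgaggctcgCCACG
Derl3: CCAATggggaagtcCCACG

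Syvn1, the ubiquitin ligase that clears misfolded ER proteins, went from 46.7 and 61.4 CPM to 91.2 and 91.4 CPM (log2 change 0.77 ± 0.15, adjusted p = 0.00616). Pdia4, a disulfide isomerase without a match in its window, went from 284 and 309 CPM to 503 and 501 CPM (0.76 ± 0.11, adjusted p = 0.00110). Hyou1, a large chaperone of the ER, went from 366 and 437 CPM to 671 and 664 CPM (0.73 ± 0.12, adjusted p = 0.00197). Hspa5, which encodes BiP, the main ER chaperone, went from 1060 and 1148 CPM to 1797 and 1857 CPM (0.73 ± 0.12, adjusted p = 0.00287). In each of these genes the NTC libraries were at nearly one level and above both untreated libraries. Pdia3, Hsp90b1, Pdia6 and Calr, named after their values were seen to complete the count, rose by 0.56 ± 0.12 (adjusted p = 0.0160), 0.54 ± 0.13 (0.0248), 0.50 ± 0.12 (0.0182) and 0.44 ± 0.12 (0.0443). Their 4 calls were lost without untreated 1 (adjusted p from 0.0788 to 0.134), NTC 1 (0.181 to 0.357), NTC 2 (0.202 to 0.310), knock-down 1 (0.0524 to 0.109) or knock-down 2 (0.0531 to 0.110), and those of Pdia6 and Calr also without untreated 2 (0.0543 and 0.111). Among the members with a match that were not called, the log2 changes of Creld2, Canx, Dnajc3 and Derl3 were 0.39, 0.26, 0.19 and 0.05, and Manf, another secreted ER stress protein, was at -0.16 (adjusted p = 0.511). The regulators Ern1, Xbp1 and Atf6 were not called (0.50, 0.19 and 0.10). Knock-down cells, set against the same untreated libraries, had a list median of 0.04, with Hspa5 at 1058 and 1175 CPM and Pdia4 at 256 and 276 CPM. The ER count rested on single libraries: it was 1 without NTC 1 (Pdia4), 2 without NTC 2, 3 without untreated 1, 7 without untreated 2, and 4 without either knock-down library. Hspa5 had adjusted p-values of 0.0751 and 0.0833 without NTC 1 and NTC 2, Hyou1 of 0.0605 without NTC 1, and Syvn1 of 0.0671, 0.103 and 0.0884 without untreated 1, NTC 1 and NTC 2.

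**Figure D4:**
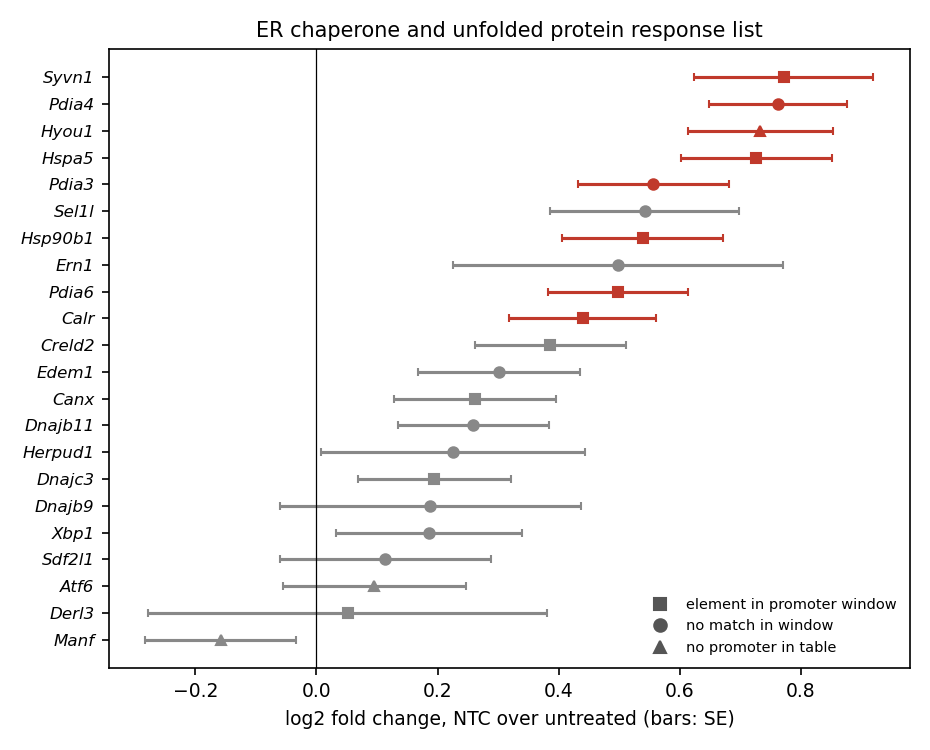
Log2 fold change of NTC over untreated cells (points, bars are the SE) for the 22 genes of the ER list, red where called and grey where not, with squares for genes whose promoter window holds the element, circles for genes without a match and triangles for genes with no window in the table. 5 of the 8 red points are squares, and 4 squares are grey, from Creld2 at 0.39 to Derl3 at 0.05.

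The genes that respond to viral nucleic acid showed no call. None of 20 tested interferon-stimulated genes was higher or lower with edgeR, 0 had an unadjusted p below 0.05 and DESeq2 called 0. The list median was -0.09. No member had both NTC libraries above both untreated ones (29.4% of all genes did), and 4 had both below (24% of all genes did). Bst2 and Ifit2, classic members, had log2 changes of -0.44 and -0.56 that did not pass the test, and without untreated 1 a single member of the list was called lower. None of 15 sensors and adaptors of foreign nucleic acid was called (median 0.00), Cgas and Ddx58 being at -0.35 and -0.06. None of 18 genes of the RNA interference machinery was called either (median 0.03), with Ago2 at 0.07 and Dicer1 at 0.07. In each of the last 2 lists 1 gene had an unadjusted p below 0.05 in edgeR and DESeq2 called 0. Of 15 genes that restrict or affect lentiviruses 1 was higher and 1 lower (6.67% each, against 3.88% and 1.11% of all genes). Ifitm1, an interferon-inducible membrane protein that is also a marker of early germ cells, rose from 66.4 and 36.7 CPM to 98.1 and 91.4 CPM (0.84 ± 0.20, adjusted p = 0.0203), and Marcks, an actin-binding substrate of protein kinase C, fell from 128 and 140 CPM to 81.5 and 79.4 CPM (-0.73 ± 0.14, adjusted p = 0.00619). Neither call held without NTC 1 (0.213 and 0.113) or NTC 2 (0.123 and 0.113), and that of Ifitm1 was also lost without untreated 2 (0.140), knock-down 1 (0.0565) or knock-down 2 (0.0579).

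Genes linked to drug efflux and to stress on translation were looked at next. Of 13 tested transporters 2 were higher (15.4%, against 3.88% of all genes), 8 had both NTC libraries above both untreated ones (29.4% of all genes did), and the median was 0.38. The calls were Abcc5 from 147 and 135 CPM to 226 and 247 CPM (0.74 ± 0.12, adjusted p = 0.00247; 0.0758 without NTC 2) and Abcc1, the multidrug resistance protein MRP1, from 69.8 and 92.8 CPM to 112 and 120 CPM (0.53 ± 0.15, adjusted p = 0.0488; 0.288 without untreated 1, 0.234 without NTC 1, 0.330 without NTC 2 and 0.102 without either knock-down library). Knock-down cells, which had met the same lentivirus system and the same drug, had 267 and 259 CPM of Abcc5 and 124 and 144 CPM of Abcc1. The part of the drug in these levels was not tested. The best known efflux pumps, Abcb1a, Abcb1b and Abcg2, were not called (0.04, 0.29 and 0.43). Of 27 targets of ATF4, the factor that answers amino acid shortage, 2 were higher and 1 lower. These shares were 7.41% and 3.7%, against 3.88% and 1.11% of all genes. Slc7a3, a transporter of arginine and lysine, rose from 124 and 158 CPM to 231 and 232 CPM (0.72 ± 0.13, adjusted p = 0.00337; 0.0740 and 0.0654 without NTC 1 and NTC 2), and knock-down cells had 248 and 258 CPM of it. Slc3a2, the common chain of amino acid exchangers, rose by 0.41 ± 0.11 (adjusted p = 0.0362) and Ddit4, an inhibitor of the growth kinase mTORC1, fell by 0.75 ± 0.17 on the log2 scale (adjusted p = 0.0163). Both were lost without NTC 1 (0.359 and 0.188), NTC 2 (0.228 and 0.141) or untreated 1 (0.120 and 0.202), and Slc3a2 also without untreated 2 (0.0769), knock-down 1 (0.0942) or knock-down 2 (0.0952). Atf4 itself went from 399 and 276 CPM to 226 and 223 CPM, which did not pass the test (-0.59 ± 0.17, adjusted p = 0.0599).

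Of 25 targets of p53, which answers DNA damage, 1 was higher and 3 lower, with a median of -0.18. These shares were 4.0% and 12.0%, against 3.88% and 1.11% of all genes. Cdkn1a and Mdm2, the best known targets, were not called (adjusted p = 0.377 and 0.994). Beside Pmaip1, Zmat3, which encodes an RNA-binding protein, fell by 0.57 ± 0.13 on the log2 scale (adjusted p = 0.0196) and Perp, a desmosome protein, by 0.76 ± 0.19 (0.0291), while the death receptor Tnfrsf10b rose by 0.64 ± 0.15 (0.0171). Without NTC 1, NTC 2 and untreated 2 none of the 25 was called, with adjusted p-values of 0.264, 0.141 and 0.167 for Zmat3, 0.281, 0.186 and 0.211 for Perp, 0.257, 0.107 and 0.102 for Tnfrsf10b, and 0.119, 0.0659 and 0.0814 for Pmaip1. Without knock-down 1 or knock-down 2, Pmaip1 alone of them was called (0.0572 and 0.0577 for Zmat3, 0.0705 and 0.0722 for Perp, 0.0524 and 0.0526 for Tnfrsf10b). With library totals in place of TMM factors 1 of the 25 was higher and 1 lower. No apoptosis regulator (26 tested), heat shock chaperone (19), NF-kB factor or target (15), gene of G2 and mitosis (27), cell cycle entry gene (17) or immediate early gene (18) was called in either direction. In that order the medians were -0.13, -0.21, 0.06, -0.19, -0.21 and -0.29, and 4, 6, 0, 10, 3 and 3 genes had an unadjusted p below 0.05 in edgeR. DESeq2 called 1 heat shock gene lower and 0 genes of the other 5 lists. The immediate early gene Fos was at -0.92 and Egr1 at -0.47, without passing the test. Of 21 targets of NRF2 the peroxiredoxin gene Prdx1 was the single call (-0.58 ± 0.13, adjusted p = 0.0159; 0.0968 without untreated 2, 0.262 without NTC 1 and 0.140 without NTC 2), and of 28 S phase genes Rrm1, a subunit of ribonucleotide reductase (-0.41 ± 0.11, adjusted p = 0.0436; 0.180 without untreated 2, 0.344 and 0.315 without NTC 1 and NTC 2, 0.107 and 0.109 without knock-down 1 and 2).

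Some ribosomal protein and translation factor genes fell. Of 40 ribosomal protein genes 3 were lower (7.5%, against 1.11% of all genes) and none higher, with a median of -0.13 (-0.03 with library totals). Among these were Rps26 (-0.56 ± 0.15, adjusted p = 0.0436) and Rplp0 (-0.47 ± 0.12, adjusted p = 0.0289), both lost without untreated 2 (0.375 and 0.165), NTC 1 (0.261 and 0.273), NTC 2 (0.313 and 0.272), knock-down 1 (0.0948 and 0.0779) or knock-down 2 (0.0981 and 0.0804). Ribosomal protein genes have many processed pseudogenes that can share their reads. Of 20 translation factors 2 were lower (10%) and none higher, with a median of -0.24: the initiation factor subunit Eif2s2 from 260 and 248 CPM to 168 and 161 CPM (-0.63 ± 0.12, adjusted p = 0.00702; 0.116 and 0.138 without NTC 1 and NTC 2) and the ribosome rescue factor Pelo from 51.3 and 52.6 CPM to 30.5 and 34.3 CPM (-0.68 ± 0.18, adjusted p = 0.0372; 0.103, 0.122, 0.352 and 0.185 without untreated 1, untreated 2, NTC 1 and NTC 2, and 0.0889 and 0.0897 without knock-down 1 and 2). With library totals in place of TMM factors, 1 of the 40 ribosomal protein genes and none of the translation factors was called. Knock-down cells, selected with the same drug, had a ribosomal protein median of 0.09 against untreated cells, with 4 genes called higher and 2 lower. Their translation factor median was -0.05, with 0 higher and 1 lower. The part of the drug was not tested.

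The gene targeted in the study and the markers of cell identity are given next. Setd7, the target of the knock-down, was at 76.3 and 66.3 CPM untreated and at 60.7 and 66.6 CPM in NTC cells (-0.17 ± 0.17, adjusted p = 0.628), with overlapping groups, against 14.0 and 10.8 CPM in knock-down cells. Ly6a had a log2 change of -0.62 ± 0.41 (adjusted p = 0.423). Pou5f1, Nanog and Sox2, the core factors of pluripotency, were still abundant in both groups, at 625 and 674 against 548 and 542 CPM, 207 and 166 against 190 and 206 CPM, and 308 and 299 against 312 and 270 CPM. None of the 3 was called (adjusted p = 0.361, 0.773 and 0.842), and the NTC and untreated values of Nanog and Sox2 overlapped. Of 37 pluripotency genes 2 were higher (5.41%, against 3.88% of all genes) and none lower. They were Dppa3, a maternal factor that guards methylation (0.74 ± 0.20, adjusted p = 0.0429), and Zfp57, a zinc finger protein that keeps imprints (0.68 ± 0.17, adjusted p = 0.0275). Neither call held without untreated 2 (0.184 and 0.197), NTC 1 (0.253 and 0.188), NTC 2 (0.303 and 0.204), knock-down 1 (0.0986 and 0.0663) or knock-down 2 (0.0984 and 0.0680), and Dppa3 was also lost without untreated 1 (0.0825).

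Some smooth muscle genes fell. Of 26 contractile genes 3 were lower (11.5%, against 1.11% of all genes) and 1 higher (3.85%, against 3.88%), with a median of -0.21. Desmin (Des), the intermediate filament of muscle, fell from 66.1 and 45.5 CPM to 31.2 and 28.1 CPM (-0.93 ± 0.19, adjusted p = 0.00966), caldesmon (Cald1) from 282 and 240 CPM to 186 and 187 CPM (-0.49 ± 0.12, adjusted p = 0.0264) and transgelin 2 (Tagln2) from 234 and 168 CPM to 140 and 138 CPM (-0.54 ± 0.15, adjusted p = 0.0496). Filamin A (Flna), a broadly expressed actin crosslinker, rose from 1037 and 1011 CPM to 1746 and 1677 CPM (0.74 ± 0.12, adjusted p = 0.00239; 0.0888 and 0.0518 without NTC 1 and NTC 2). The contractile markers Acta2 (427 and 244 against 271 and 282 CPM), Tagln (373 and 228 against 214 and 231 CPM) and Cnn1 (21.0 and 19.4 against 12.5 and 12.5 CPM) did not pass the test (-0.29, -0.44 and -0.70; adjusted p = 0.496, 0.152 and 0.115). Untreated 1 held most of the excess, with a marker sum of 827 CPM against 496 in untreated 2 and 501 and 530 in the NTC libraries. Without untreated 1 no contractile gene was lower (0.121 for Des, 0.151 for Cald1 and 0.370 for Tagln2), without untreated 2, 7 were, and the 3 calls were also lost without NTC 1 (0.113, 0.273 and 0.306) or NTC 2 (0.152, 0.224 and 0.305), those of Cald1 and Tagln2 also without knock-down 1 (0.0679 and 0.114) or knock-down 2 (0.0693 and 0.115). With library totals 1 was higher and 1 lower.

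Surface receptors of progenitor and mural cells rose in several cases. Of 19 tested progenitor surface genes 6 were higher (31.6%, against 3.88% of all genes) and none lower, with a median of 0.32. Mcam, the adhesion molecule CD146 of pericytes, rose from 40.8 and 37.1 CPM to 98.3 and 89.8 CPM (1.26 ± 0.14, adjusted p = 9.34e-05). Flt1, the VEGF receptor 1, rose from 48.5 and 68.5 CPM to 134 and 121 CPM (1.14 ± 0.17, adjusted p = 0.00108). Pdgfra, the alpha receptor for platelet-derived growth factor, rose from 83.7 and 85.3 CPM to 164 and 175 CPM (1.00 ± 0.12, adjusted p = 0.000137), and these 3 calls held without any single library. The beta receptor Pdgfrb rose from 33.1 and 15.9 CPM to 68.3 and 55.9 CPM (1.29 ± 0.24, adjusted p = 0.00586; 0.119 without NTC 1), and the ligand Pdgfa by 0.61 ± 0.16 (adjusted p = 0.0333; 0.211 without untreated 2, 0.336 and 0.141 without NTC 1 and NTC 2, 0.0845 and 0.0850 without knock-down 1 and 2). Of 6 tested genes of this growth factor family the 3 just named were the calls. Embryonic stem cells had more Mcam (156 and 164 CPM) and Pdgfra (227 and 204 CPM) than NTC cells. They had less Flt1 (10.5 and 7.48 CPM) and Pdgfrb (8.47 and 5.50 CPM). The sum of 6 fibroblast markers was 558 and 626 CPM untreated and 1289 and 1237 CPM in NTC cells. Col1a1, Col1a2 and Pdgfra made up most of it, while Dcn (3.71 and 4.42 against 3.78 and 3.12 CPM), Lum (below 1 CPM in all 4) and Thy1 (30.3 and 19 against 29.1 and 29.2 CPM) overlapped between the groups. In the longer list of fibroblast and feeder cell genes 6 of 10 tested were higher (60.0%) and none lower. Both NTC libraries were above both untreated ones in 8 (29.4% of all genes did this), and the median was 0.96. Its called members were Col1a1, Col1a2, Col3a1, Fbln1, Pdgfra and Pdgfrb, and the part of such cells in the matrix result was not tested. In bulk RNA a larger share of cells of a type and more RNA per cell cannot be told apart.

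A few genes of endothelium and of visceral endoderm also rose. Of 14 endothelial genes 3 were higher (21.4%, against 3.88% of all genes) and none lower. Pecam1, the adhesion molecule CD31 that embryonic stem cells also express, rose from 45.4 and 43.3 CPM to 82.0 and 85.1 CPM (0.91 ± 0.14, adjusted p = 0.00115), with 90.4 and 103 CPM in knock-down cells. Beside Flt1, the third was Esam, a junction protein, at 2.78 and 0.884 CPM untreated and 5.91 and 8.69 CPM in NTC cells (1.87 ± 0.44, adjusted p = 0.0196), where untreated 2 held few reads. It was lost without untreated 2 (0.124), NTC 1 (0.0674), NTC 2 (0.213), knock-down 1 (0.0524) or knock-down 2 (0.0526), and Cdh5, the defining endothelial cadherin, stayed at or below 2.01 CPM in all 4 libraries. Of 21 endoderm genes 5 were higher (23.8%) and none lower: Cubn, Amn, Pdgfra, Lama1 and Apoe. Amn, the partner that brings cubilin to the membrane, rose from 8.96 and 6.63 CPM to 21.7 and 17.6 CPM (1.30 ± 0.24, adjusted p = 0.00488; 0.103 without NTC 1), and knock-down cells had 43.8 and 44.8 CPM. Embryonic stem cells had 60.4 and 55.5 CPM of Amn. Summed levels of the endoderm markers Afp, Sox17, Foxa2 and Ttr were 38.9 and 25.2 CPM untreated and 30.0 and 29.0 CPM in NTC cells, with overlapping groups.

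Imprinted genes that rose included several of the Dlk1 and Meg3 domain, a cluster in which Dlk1 is read from the paternal and the non-coding Meg3 and Rian from the maternal chromosome. Of 32 tested imprinted genes 5 were higher (15.6%, against 3.88% of all genes) and none lower. Meg3 rose from 546 and 561 CPM to 1077 and 981 CPM (0.89 ± 0.14, adjusted p = 0.00156; 0.0547 without NTC 1) and Rian from 204 and 233 CPM to 312 and 351 CPM (0.60 ± 0.13, adjusted p = 0.0141; 0.0897 without untreated 1, 0.0961 and 0.214 without NTC 1 and NTC 2). Rtl1 and Mirg of the same domain were not called (-0.33 and 0.40). Igf2r, the maternally expressed receptor that removes IGF2 and carries lysosomal enzymes, rose from 258 and 316 CPM to 706 and 687 CPM (1.28 ± 0.15, adjusted p = 0.000103), a call that held without any single library, and knock-down cells had 292 and 280 CPM. Peg3, a paternally expressed zinc finger gene named to complete the count, rose by 0.48 ± 0.13 (adjusted p = 0.0402; 0.242 without untreated 2, 0.470 and 0.111 without NTC 1 and NTC 2, 0.108 and 0.110 without knock-down 1 and 2). Igf2 was at 1101 and 627 CPM untreated and 1126 and 1078 CPM in NTC cells and was not called (0.35 ± 0.21, adjusted p = 0.377).

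Of 32 tested Hox genes 4 were higher (12.5%, against 3.88% of all genes) and 1 lower (3.12%, against 1.11%), with a median of 0.33. Hoxd3, next to Hoxd4 in the cluster, rose from 43.6 and 37.6 CPM to 88.9 and 81.4 CPM (1.06 ± 0.16, adjusted p = 0.00130; 0.0546 without NTC 1). Hoxa3 rose by 0.93 ± 0.19 (adjusted p = 0.0109) and Hoxa7 by 1.12 ± 0.29 (adjusted p = 0.0341). These were lost without untreated 2 (0.0915 and 0.0604), NTC 1 (0.116 and 0.253) or NTC 2 (0.141 and 0.255), and Hoxa7 also without untreated 1 (0.178), knock-down 1 (0.0836) or knock-down 2 (0.0829). Members at the 5′ ends of the clusters, such as Hoxd11 (0.62) and Hoxc13 (0.29), were not called. No Hox gene was higher without NTC 1, 2 were without NTC 2, 3 without untreated 1 and 2 without untreated 2.

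Among signalling genes, single receptors and extracellular regulators rose. Notch1, a receptor, rose from 54.4 and 72.5 CPM to 137 and 128 CPM (1.08 ± 0.14, adjusted p = 0.000388) and Notch2 from 79.4 and 109 CPM to 185 and 182 CPM (0.98 ± 0.15, adjusted p = 0.00115), while the Notch targets Hes1 and Hey1 were not called (-0.60 and 0.09). Notum, an enzyme that inactivates Wnt proteins, rose from 61.8 and 54.8 CPM to 133 and 120 CPM (1.11 ± 0.14, adjusted p = 0.000169), while the Wnt target Axin2 was not called (0.09). Ltbp1, which stores latent TGF-beta in the matrix, rose from 51.9 and 63.2 CPM to 106 and 118 CPM (0.97 ± 0.15, adjusted p = 0.00115), while the TGF-beta target Smad7 was not called (-0.12). These 4 rises held without any single library. The uncalled targets named here are single examples, and other genes of the Wnt and TGF-beta pathways were higher. Dkk1 rose by 0.92 ± 0.19 (adjusted p = 0.0107), Apcdd1 by 0.85 ± 0.16 (0.00629) and the TGF-beta-induced gene Tgfbi by 0.90 ± 0.17 (0.00563). These 3 calls were lost without NTC 1 or NTC 2. By list, 2 of 17 Notch genes (11.8%), 4 of 24 Wnt genes (16.7%) and 4 of 23 TGF-beta genes (17.4%) were higher and 1, 1 and 0 lower. No gene of 14 in the Nodal and Lefty list or of 20 in the BMP list was called by edgeR, 3 in each had an unadjusted p below 0.05, and DESeq2 called 1 and 0. Cdh3, the placental cadherin, rose from 55.6 and 70.2 CPM to 138 and 139 CPM (1.15 ± 0.15, adjusted p = 0.000224). It was the single call among 26 epithelial genes, a share of 3.85% against 3.88% higher over all genes.

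Some genes of metabolism and organelles were also called. Of 25 lysosome and autophagy genes 4 were higher (16%, against 3.88% of all genes) and none lower, with a median of 0.14, among them the protease cathepsin L (Ctsl), from 394 and 410 CPM to 587 and 623 CPM (0.59 ± 0.11, adjusted p = 0.00615). Its call was lost without NTC 1 (0.0961) or NTC 2 (0.136), and without either of these libraries no lysosome gene was called. Of 24 glycolysis genes 2 were higher and 1 lower (8.33% and 4.17%, against 3.88% and 1.11% of all genes). Slc2a3, the glucose transporter GLUT3, rose from 2046 and 1996 CPM to 2866 and 2992 CPM (0.54 ± 0.14, adjusted p = 0.0331), with 2845 and 3005 CPM in knock-down cells, and Ldha, a subunit of lactate dehydrogenase, fell from 639 and 535 CPM to 417 and 407 CPM (-0.51 ± 0.12, adjusted p = 0.0193). Both were lost without untreated 1 (0.0937 and 0.120), NTC 1 (0.260 and 0.234), NTC 2 (0.299 and 0.236), knock-down 1 (0.0909 and 0.0632) or knock-down 2 (0.0914 and 0.0636), and Slc2a3 also without untreated 2 (0.133). Of 26 genes of oxidative phosphorylation Cox6a1, a subunit of cytochrome c oxidase, was the single call (0.63 ± 0.12, adjusted p = 0.00453; 0.0888 and 0.0916 without NTC 1 and NTC 2). Of 22 cholesterol genes 2 were higher (9.09%), among them Dhcr7, and none lower.

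Calls were unevenly spread over transcript composition. The genes that were higher had a median GC content of 53.9% and a median length of 3773 bases, those lower 46.5% and 2664 bases, and all genes tested 50.6% and 2911 bases. Over 5 equal classes of GC content from lowest to highest, 29, 57, 105, 157 and 177 genes were higher and 61, 37, 23, 16 and 16 lower, and the median log2 change went from -0.08 to 0.11. The NTC libraries also differed from each other along GC, with medians of NTC 2 minus NTC 1 from 0.04 in the lowest class to -0.07 in the highest. Over 5 equal classes of length, 53, 86, 97, 130 and 159 genes were higher and 37, 33, 28, 32 and 23 lower. With an offset that levels the trend along GC, chosen after the data were seen, 499 genes were higher and 209 lower, and the counts higher were 20 of 32 for the interstitial matrix list, 14 of 18 for the basement membrane list and 9 of 22 for the ER list. With an offset along length, also chosen after the data were seen, 559 genes were higher and 265 lower, with 19, 14 and 9 in the same lists. Chromosome medians lay between -0.06 and 0.08 for the autosomes and the X chromosome.

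**Figure D5:**
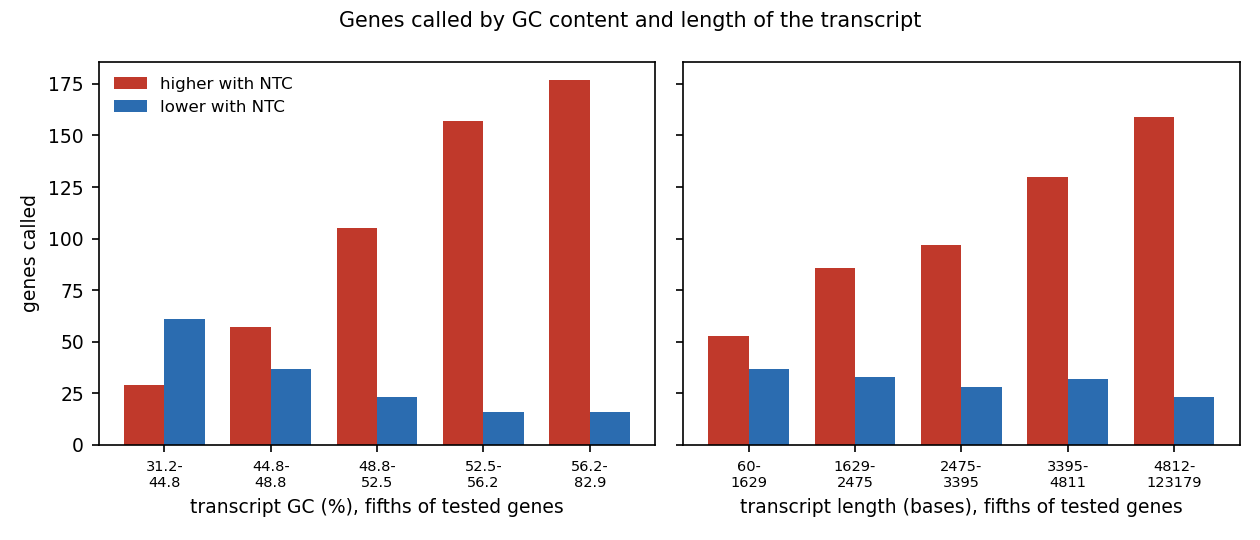
Number of genes higher (red) and lower (blue) in NTC than in untreated cells in 5 equal classes of the tested genes by transcript GC content (left) and transcript length (right), with the range of each class on the horizontal axis. Genes higher go from 29 to 177 with rising GC content and from 53 to 159 with rising length, and genes lower go from 61 to 16 with rising GC content.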

How the data were processed

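RNA-seq counts were used for 8 libraries. The deposited tables hold whole-number read counts per transcript. BWA 0.5.9, edgeR 0.19 and SAMtools 0.1.17 appear, with no role given, in the submitters' processing notes. For the genome build, counting tool and strand setting the sources used here give nothing. Transcripts were named from RefSeq (28981 of 29614) or GENCODE tables (177), and the row with the highest total stood for each gene. edgeR 4.0.16 (R 4.3.3) was run with filterByExpr, TMM factors and a robust quasi-likelihood fit of 1 mean per group over all 8 libraries, with Benjamini-Hochberg adjustment over 13966 genes. The SE is the size of the log2 change over the square root of F. CPM are counts scaled to 1e6 of the library size, which is the gene total times the TMM factor. In simulated counts for this comparison (13593 genes), 22.4% of 1.5-fold, 68.7% of 2-fold and 93.9% of 4-fold changes were recovered.

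Genes were named by rule: Ly6a and Setd7, the smooth muscle genes Acta2, Cnn1 and Tagln and the pluripotency genes Nanog, Pou5f1 and Sox2, the 12 largest non-overlapping changes per direction whose higher group reached 20 CPM, and up to 4 called members of each list with the smallest p. Genes that were not called are named as list examples, chosen after their values were seen. Some genes that the rule covers are not reported here. The comparison, the members and the lists were chosen with earlier results of these data known. DESeq2 1.42.0, other scalings, filters and designs, and fits without each library were tried as alternatives.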

Additional observations from a re-analysis of the deposited data

How the results depend on the processing

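The main counts were 542 genes higher and 155 lower. Over fits without 1 library each, the count higher ranged from 54 to 988 and the count lower from 2 to 529. A replicate block for the library code gave 819 and 442 and kept 100 of 112 named calls. It ended those of Eomes (adjusted p = 0.111), Dtx4 (0.0974), Dtx1 (0.104), Perp (0.117), Zfp57 (0.340), Dppa3 (0.118) and Fgf5 (0.172), among others, and that of Peg3 (0.0645), which the rule does not name. A test against a 1.5-fold change (glmTreat) gave 14 and 1. Library totals gave 18 lower, no filter on low counts 343 lower and a fit of the 4 compared libraries 348 lower. Of the alternatives chosen after seeing the data, leaving out the 2 libraries of code 56 gave 1300 and 1086, and a length offset 265 lower. The replicate block by title number gave 608 higher and 207 lower. The deviations of untreated 1 and NTC 1 correlated at -0.03. With 2 libraries a group the other pairing, untreated 1 and NTC 2 (code 34), is the same value with its sign turned, 0.03. These values therefore cannot show whether samples with the same number or code share a culture or batch. Of 112 named calls, none changed sign in any of the 22 alternatives, and 28 held in all 4 fits without a compared library. Among genes not called, the log2 change of Nanog ranged from -0.0674 (without untreated 2) to 0.26 (without untreated 1) over the fits without 1 library and was -0.0749 without code 56. That of Sox2 ranged from -0.17 (without NTC 1) to 0.0369 (without NTC 2) and was 0.0308 with library totals. That of Acta2 ranged from -0.63 (without untreated 2) to 0.18 (without untreated 1), and that of Ly6a from -1.12 to 0.43 without the same libraries. The cause of these changes was not tested. With 2 libraries a group, most 1.5-fold changes were missed in simulated counts.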
